A study of Mus musculus with 16 samples.

Results

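Bone morphogenetic proteins (BMPs) are secreted signals of the TGF-beta family, and the genes described here are 4 of their ligands (Bmp2, Bmp4, Bmp5, Bmp7), 3 secreted antagonists (Chrdl1, Grem1, Nog) and 3 target genes of the Id family (Id1, Id2, Id3). They were measured as messenger RNA in the mouse epididymis before and shortly after birth. All probe sets annotated to these 10 symbols were taken, which gave 19 of the array's 45101 probe sets, for 10 of the 18194 genes that it reads by their own symbol. A probe set is the group of short probes that reports 1 transcript region, and a gene can have several. Of the 19 probe sets, 15 passed the filter on low signal (at or above the array's median on at least 3 of 15 arrays), and these 15 stand for 8 of the 10 genes.

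The samples were whole epididymides of wild-type male CD-1 mice, an outbred stock, taken on days 12, 14, 16 or 18 of gestation (named gd12 to gd18 here) or 2 days after birth (pnd2). By the labels these are Theiler stages 20, 22, 24, 26 and 27. The RNA protocol that the labels cite is, by its name, one for whole testes, and the gd12 arrays hold germ cell and gonad markers, given below, so that gd12 may not be epididymis alone. No animal was treated and no group carries an engineered allele. Each stage had 3 samples, and a sample was both epididymides of 1 animal, each animal having its own dam. Organs were excised whole, and the RNA went through 2 rounds of amplification, so that the level reported for a gene covers the duct, the connective tissue and anything else removed with it. RNA pooled from whole newborns (4 males, 4 females, postnatal day 0.5) filled 1 more array, which entered no comparison. The design sets each stage against the one before it.

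BMP ligands bind a pair of type I and type II receptor kinases, which phosphorylate Smad1, Smad5 and Smad9, and these enter the nucleus with Smad4. Id genes are among the most direct targets. They encode helix-loop-helix proteins without a DNA-binding region that pair with E proteins and keep them off DNA. Chordin-like 1 (Chrdl1), gremlin 1 (Grem1) and noggin (Nog) bind ligands outside the cell and hold them from their receptors. The epididymis grows from the Wolffian duct, an epithelial tube in mesenchyme, and in adult mice Bmp4, Bmp7 and the Bmp8 genes are known for keeping the epididymal epithelium intact.

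Promoter sequence was at hand for 5 of the 10 genes, from RefSeq on build GRCm38.p6, as 300 bases that run from 250 before to 50 after the start of transcription, written 5′ to 3′ on the gene's strand. The windows of Bmp4 (chr14:46390620-46390919, minus strand), Bmp5 (chr9:75775115-75775414, plus strand), Id2 (chr12:25096043-25096342, minus strand), Id3 (chr4:136143572-136143871, plus strand) and Grem1 (chr2:113758599-113758898, minus strand) are shown because the levels of these genes differed between stages in at least 1 of the fits below. Capitals mark matches to GGCGCC, the GC-rich motif of Smad1 and Smad5, which reads the same on both strands, and to GTCT, the core Smad-binding motif, which reads AGAC on the other strand. The motifs cannot overlap each other.
Bmp4: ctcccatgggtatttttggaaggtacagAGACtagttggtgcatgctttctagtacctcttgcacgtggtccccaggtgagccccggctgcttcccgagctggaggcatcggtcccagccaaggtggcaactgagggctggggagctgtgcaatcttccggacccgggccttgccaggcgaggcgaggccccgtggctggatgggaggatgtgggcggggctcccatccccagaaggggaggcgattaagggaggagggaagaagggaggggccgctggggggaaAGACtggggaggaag
Bmp5: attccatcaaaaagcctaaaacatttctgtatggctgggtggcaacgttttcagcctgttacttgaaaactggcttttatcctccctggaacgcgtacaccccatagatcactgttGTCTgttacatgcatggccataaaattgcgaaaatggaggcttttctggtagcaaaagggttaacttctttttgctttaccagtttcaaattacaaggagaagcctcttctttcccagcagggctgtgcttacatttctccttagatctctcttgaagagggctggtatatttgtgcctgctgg
Id2: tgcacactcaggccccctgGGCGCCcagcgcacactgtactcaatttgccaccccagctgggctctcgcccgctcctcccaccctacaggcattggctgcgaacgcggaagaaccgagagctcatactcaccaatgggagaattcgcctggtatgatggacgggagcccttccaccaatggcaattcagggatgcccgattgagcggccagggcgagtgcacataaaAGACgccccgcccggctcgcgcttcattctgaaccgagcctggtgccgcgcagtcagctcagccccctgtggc
Id3: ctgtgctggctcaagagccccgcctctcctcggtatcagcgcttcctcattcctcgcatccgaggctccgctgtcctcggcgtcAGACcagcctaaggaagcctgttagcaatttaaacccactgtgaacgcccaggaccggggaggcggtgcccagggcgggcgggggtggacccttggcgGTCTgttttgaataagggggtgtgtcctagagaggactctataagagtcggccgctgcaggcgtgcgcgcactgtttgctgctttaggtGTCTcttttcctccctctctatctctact
Grem1: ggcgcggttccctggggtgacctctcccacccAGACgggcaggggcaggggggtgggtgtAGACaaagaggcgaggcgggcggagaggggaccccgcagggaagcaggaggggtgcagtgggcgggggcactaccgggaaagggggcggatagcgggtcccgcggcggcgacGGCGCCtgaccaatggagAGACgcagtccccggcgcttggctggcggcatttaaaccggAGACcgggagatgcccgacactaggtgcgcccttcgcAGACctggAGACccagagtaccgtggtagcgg
GGCGCC was once in the Id2 window, 231 bases before the start, and once in the Grem1 window, 78 bases before it, and it was not in the windows of Bmp4, Bmp5 and Id3. In all, 11.9% of the 32851 promoter windows of this length hold it. GTCT or AGAC was found once in Bmp5 and Id2, 2 times in Bmp4, 3 times in Id3 and 6 times in Grem1, and 88% of all windows hold it. A match in letters is not a measured binding site, and binding was not measured here.

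Levels are array signals on a linear scale, scaled so that the mean of each array without its lowest and highest 2% was 500. One array stood apart from its stage. The ratio of the 3′ to the 5′ control probe set of Gapdh, which grows as RNA is degraded, was 63.2 on pnd2 replicate 3 and 4.33 to 7.18 elsewhere. Its median signal was 81.2, while the others had medians of 110.3 to 133. Results are therefore given with and without it. Stages were compared with limma in 1 fit over all 15 arrays, with p adjusted over all 25960 kept probe sets, and "called" means an adjusted p below 0.05. Each change is a log2 difference between stages of 3 arrays with its standard error (SE), turned into a fold only where it was called. The SE rests on a spread shared by all stages in the fit. With all 15 arrays, pnd2 replicate 3 therefore enters it even where pnd2 is not compared.

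Markers of several cell types moved between the same stages. The summed signal of 6 smooth muscle markers was 2228 to 4578 at gd12, 7637 to 11946 at gd14, 20664 to 24463 at gd16, 37517 to 38834 at gd18 and 42013 to 51265 at pnd2. All 6 were called higher at gd18 than at gd12. Of them, Myh11 and Cnn1 reached the array median on arrays of gd16, gd18 and pnd2 alone, so that this count is not independent of the filter. All 5 stroma markers (Pdgfra, Dcn, Col1a1, Col3a1, Lum) were called higher at gd14 than at gd12, with sums of 85838 to 95975 at gd14 and 30356 to 40798 at gd12. All 5 germ cell markers (Ddx4, Dazl, Pou5f1, Dppa3, Dppa5a) were called lower, with sums of 959 to 1445 at gd14 and 12816 to 19506 at gd12. Of 7 gonad markers measured, 4 (Sox9, Dmrt1, Dhh, Nr5a1) were lower at gd14, and none was higher. Pou5f1 and Dmrt1 reached the array median on the gd12 arrays alone, so that the germ cell and gonad counts are not independent of the filter. The steroid enzyme gene Cyp17a1 read 949 on gd14 replicate 10 and 2211 on gd16 replicate 9, against 7.53 to 302 on the other 13 epididymis arrays. Of 11 duct epithelium markers listed, 9 were on the array and 8 passed the filter, among them Pax8, Lhx1 and Emx2, known from the Wolffian duct. Of these 8, 4 (Epcam, Krt8, Krt18, Adgrg2) were higher at gd18 than at gd12, and none was lower. At pnd2 against gd12, 6 were higher, with Lhx1 and Cdh1 added, and 0 lower (5 and 0 without pnd2 replicate 3). The sums were 34371 to 38092 at pnd2 and 21438 to 24179 at gd18, and 0 of the 8 were called at pnd2 against gd18. Of 9 endothelial markers, none was called in the comparisons of gd14 or gd18 with gd12, and Cldn5 was lower at gd18 without pnd2 replicate 3. Of 5 macrophage markers, 3 (Csf1r, Adgre1, Mrc1) were higher at gd14 and at gd18 than at gd12, with sums of 6819 to 7852 at gd14 and 1601 to 3989 at gd12. All 3 erythroid markers measured (Hbb-bh1, Hbb-y, Slc4a1) were lower at gd18 than at gd12, with sums of 95.5 to 259.8 at gd18 and 38951 to 59540 at gd12. Of 3 nephron markers, 1 (Wt1, also made in the gonad) was lower at gd18, with sums of 3941 to 4375 at gd18 and 4472 to 5939 at gd12. The cartilage gene Col2a1, the 1 gene measured of 5 skeleton markers listed, was lower at gd14 and at gd18 than at gd12. It reached the array median on the gd12 arrays alone, so that its calls are not independent of the filter. In whole organs, fewer cells of a type and less RNA per cell cannot be told apart. The part of these shifts in the changes below was not tested.

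The largest changes among the 10 genes were those of Chrdl1, which rose late. Bmp4 and 1 of the 3 Bmp5 probe sets were higher, and Bmp7 lower, in the fetal epididymis at gd18 than at gd12. None of the Id probe sets was called in any of the 7 comparisons of 2 stages that were made, with all 15 arrays. At gd14 against gd12, 2 of 15 probe sets were called, both of Bmp5 and both higher, beside 8.72% of all kept probe sets (5.09% higher, 3.64% lower). At gd18 against gd12, 6 of 15 were called (4 higher, 2 lower), beside 16.5% of all (9.45% higher, 7.1% lower). Of these 6, the 2 of Chrdl1 and 1 of Bmp7 (1418910_at) passed the filter through the stages where they are high. The same 2 Chrdl1 probe sets are also among the calls at pnd2 against gd12 and in the F test below. The single calls at gd18 against gd16 and at pnd2 against gd18 are of Chrdl1 too. These counts are therefore not independent of the filter. The comparison of pnd2 with gd12 called 4 of 15 (3 higher, 1 lower), beside 21.1% of all (10.3% higher, 10.8% lower). Between consecutive later stages, 0 of 15 were called at gd16 against gd14 (3 had an unadjusted p under 0.05), beside 0.0616% of all. At gd18 against gd16 there was 1, a higher one, beside 0.143% of all (0.0963% higher), and at pnd2 against gd18 there was 1, also higher, beside 0.559% (0.169% higher). Over the 5 stages, the limma F test called 6 of 15 (Bmp4, Id3, and a pair of probe sets each of Bmp5 and Chrdl1), beside 21% of all. Without pnd2 replicate 3 the counts were 6 at gd14 against gd12 (background 23.8%), 7 at gd18 against gd12 (33.3%), 4 at pnd2 against gd12 (28.1%) and 10 in the F test (38.7%). In the later consecutive steps they were 0 (4 at an unadjusted p under 0.05), 2 and 1, beside 0.732%, 1.01% and 1.75% of all. The median log2 change of the 15 probe sets at gd14 against gd12 was 0.67, and that of all kept probe sets was 0.07. At gd18 against gd12 these medians were 0.40 and 0.04. All kept probe sets together had a median of -0.16 at pnd2 against gd18 (0.09 after median centring of the arrays) and -0.14 at pnd2 against gd12 (0.02 after centring), and changes at pnd2 are to be read beside that shift. The split of all calls at pnd2 against gd18 was 44 higher and 101 lower, and it was 42 and 29 after centring. For pnd2 against gd12 it was 2666 and 2812, and 3076 and 2162 after centring.

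**Figure D1:**
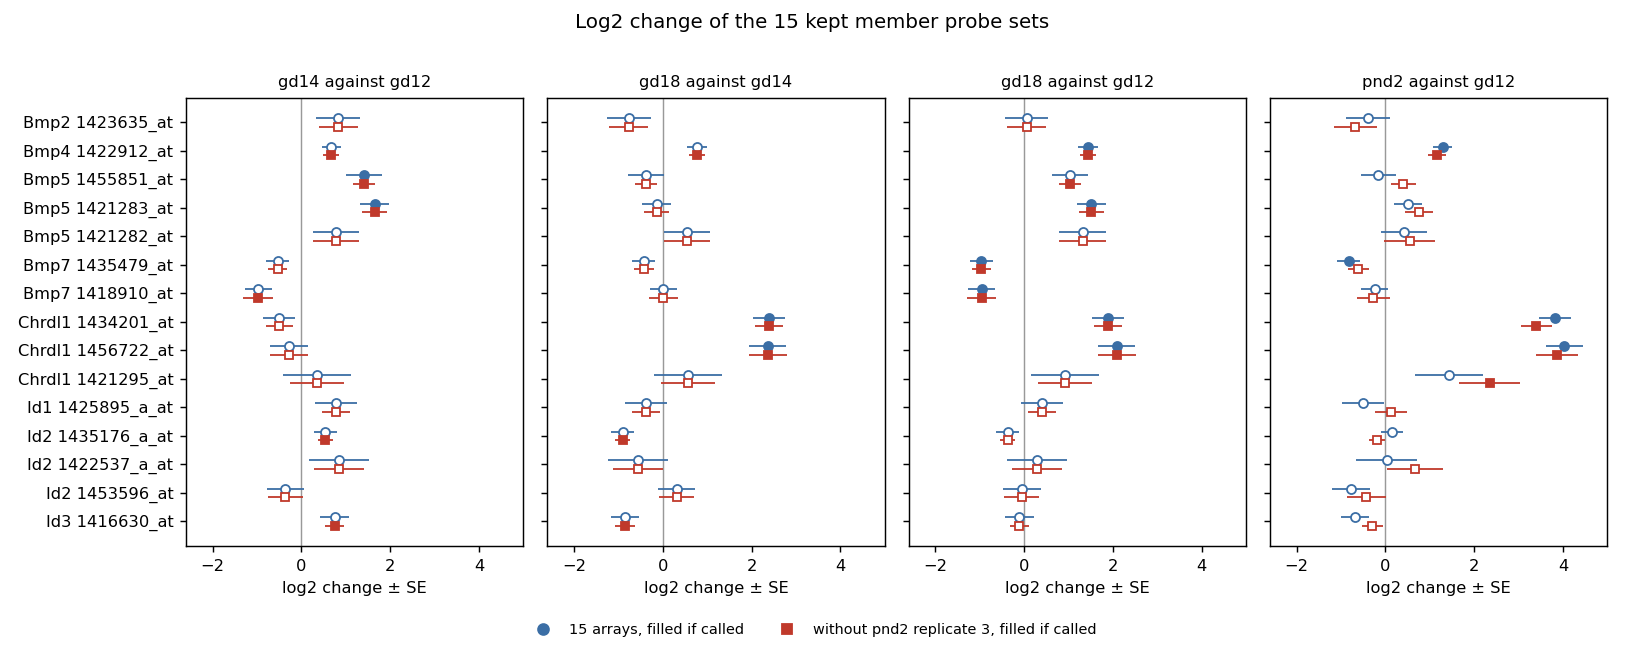
Log2 change of each of the 15 kept probe sets (rows) in 4 comparisons (panels), as the fitted change with its SE. Blue circles use all 15 arrays and red squares leave out pnd2 replicate 3, and a filled symbol was called. Chrdl1 lies far to the right at pnd2 against gd12, with changes of 3.82 and 4.03 over all 15 arrays, and the brighter Bmp7 probe set lies to the left at gd18 against gd12.

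Among the ligands, Bmp4, which mesenchyme around ducts is known to make, had 711, 533 and 406 signal units at gd12, 834, 1005 and 762 at gd14, 1129.8, 1501 and 1153 at gd16, 1377, 1460.0 and 1610.4 at gd18 and 1295, 1164 and 1562 at pnd2. All arrays of gd14 lay above those of gd12 and all of gd16 above those of gd14, while gd16, gd18 and pnd2 overlapped. Bmp4 rose 2.71-fold at gd18 against gd12 (log2 change 1.44 ± 0.22 SE, adjusted p = 0.000354), a call kept in all 27 alternatives run. It was 2.44-fold higher at pnd2 than at gd12 (adjusted p = 0.000721), a call lost in 1 alternative, the fit of the 6 arrays compared alone (0.0506). No single step carried the rise over the threshold with all 15 arrays. The change at gd14 against gd12 was 0.67 ± 0.22 (adjusted p = 0.0726, and 0.0141 without pnd2 replicate 3). Adjusted p at gd16 against gd14 was 0.843. The smooth muscle and stroma sums rose over the same stages, as given above. Bmp4 has 1 probe set, so no second one checks it.

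Bmp5, a ligand of the same subgroup as Bmp7, was read by 3 probe sets. The brightest (1455851_at) had 1914, 971 and 750.1 at gd12, 2824, 2881 and 3279 at gd14, 2611, 2219 and 2191 at gd16, 2444, 2379 and 2109 at gd18 and 1895, 1153 and 454 at pnd2. Its gd14 arrays were the highest of the 15, and gd12 lay wholly below gd14, gd16 and gd18. It was 2.65-fold higher at gd14 than at gd12 (1.41 ± 0.40, adjusted p = 0.0429). That call was lost, at adjusted p of 0.0588 to 0.162, when any 1 of 11 arrays was left out (every gd14, gd16 and gd18 array and gd12 replicates 14 and 15), and also without the filter (0.0529) and without an intensity trend. It held at 0.000743 without pnd2 replicate 3. The second probe set (1421283_at) had 184, 118 and 92.9 at gd12, 388, 416 and 494 at gd14, 420.0, 197 and 433 at gd16, 421, 335 and 424 at gd18 and 190.0, 264 and 129 at pnd2. It rose 3.13-fold at gd14 against gd12 (1.65 ± 0.33, adjusted p = 0.0051) and was 2.85-fold higher at gd18 than at gd12 (adjusted p = 0.00511), and both calls held in all 26 alternatives run. The third (1421282_at) read 7.24 to 156 over the 15 arrays, reached the array median on 4 of them, and was not called.

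After birth all 3 Bmp5 probe sets had every pnd2 array below every gd18 array, without reaching the threshold. For 1455851_at the difference was -1.19 ± 0.40 (adjusted p = 0.154), and without pnd2 replicate 3 it was -0.64 (adjusted p = 0.26). For 1421283_at it was -1.003 ± 0.33 (adjusted p = 0.145). Set against gd12, the pnd2 levels of the same probe sets differed by -0.16 ± 0.40 (0.40 without pnd2 replicate 3, which turns the direction) and 0.51 ± 0.33, neither called.

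Bmp7, needed in mice for nephron formation, went the other way in the fetus. Its brightest probe set (1435479_at) had 441, 304 and 507 at gd12, 281, 321 and 233 at gd14, 209, 179 and 285 at gd16, 199.6, 212 and 192 at gd18 and 270.4, 255 and 161 at pnd2. All gd18 and all pnd2 arrays lay below all gd12 arrays. It was 1.95-fold lower at gd18 than at gd12 (log2 change -0.97 ± 0.26, adjusted p = 0.0187). Leaving out gd12 replicate 13 or 15 or gd18 replicate 4 or 6 ended that call, at 0.0549 to 0.0813. Between pnd2 and gd12 the change was -0.82 ± 0.26 (adjusted p = 0.035), and it was -0.61 without pnd2 replicate 3 (adjusted p = 0.0756), where the call ended. It also ended without gd12 replicate 13 or 15, with no filter (0.0704), with array weights, in the fit of the 6 arrays compared alone and without the 3 arrays in doubt, at up to 0.212. Wt1 was 2.10-fold lower at gd18 than at gd12 (adjusted p = 0.000632), and its part in the change of Bmp7 was not tested. A second probe set (1418910_at) had 127, 127 and 128 at gd12, 77.8, 41.3 and 56.5 at gd14, 64.9, 96.8 and 58.2 at gd16, 60.3, 44.8 and 70.6 at gd18 and 91.8, 114 and 110.3 at pnd2. Its gd12 arrays were its highest, and pnd2 lay between gd18 and gd12. It reached the array median on 4 arrays, the 3 of gd12 and pnd2 replicate 3, so that the filter kept it through the stage where it is high, and its call is no separate support. It was lower at gd18 than at gd12 by a log2 change of -0.96 ± 0.30 (adjusted p = 0.0408, and 0.0829 with no filter). That call ended, at 0.0508 to 0.14, when any 1 of 9 arrays was left out (every gd12 and gd18 array, gd14 replicate 12, gd16 replicate 7 and pnd2 replicate 2), and also with a constant of 1 and in the fit of the 6 arrays alone. The third probe set (1432410_a_at) read 2.31 to 51.6 and did not pass the filter.

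No comparison called Bmp2, a ligand known for bone formation. Its probe set had 237, 346 and 391 at gd12, 437, 1075 and 403 at gd14, 366, 1559.7 and 702 at gd16, 245, 383 and 388 at gd18 and 269, 137 and 363 at pnd2. The high values were single arrays at gd14 (replicate 11) and gd16 (replicate 8). At gd14 against gd12, where the arrays did not overlap, the change was 0.83 ± 0.49 (adjusted p = 0.36). The F test over the stages gave an adjusted p of 0.112, and 0.0321 without pnd2 replicate 3.

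**Figure D2:**
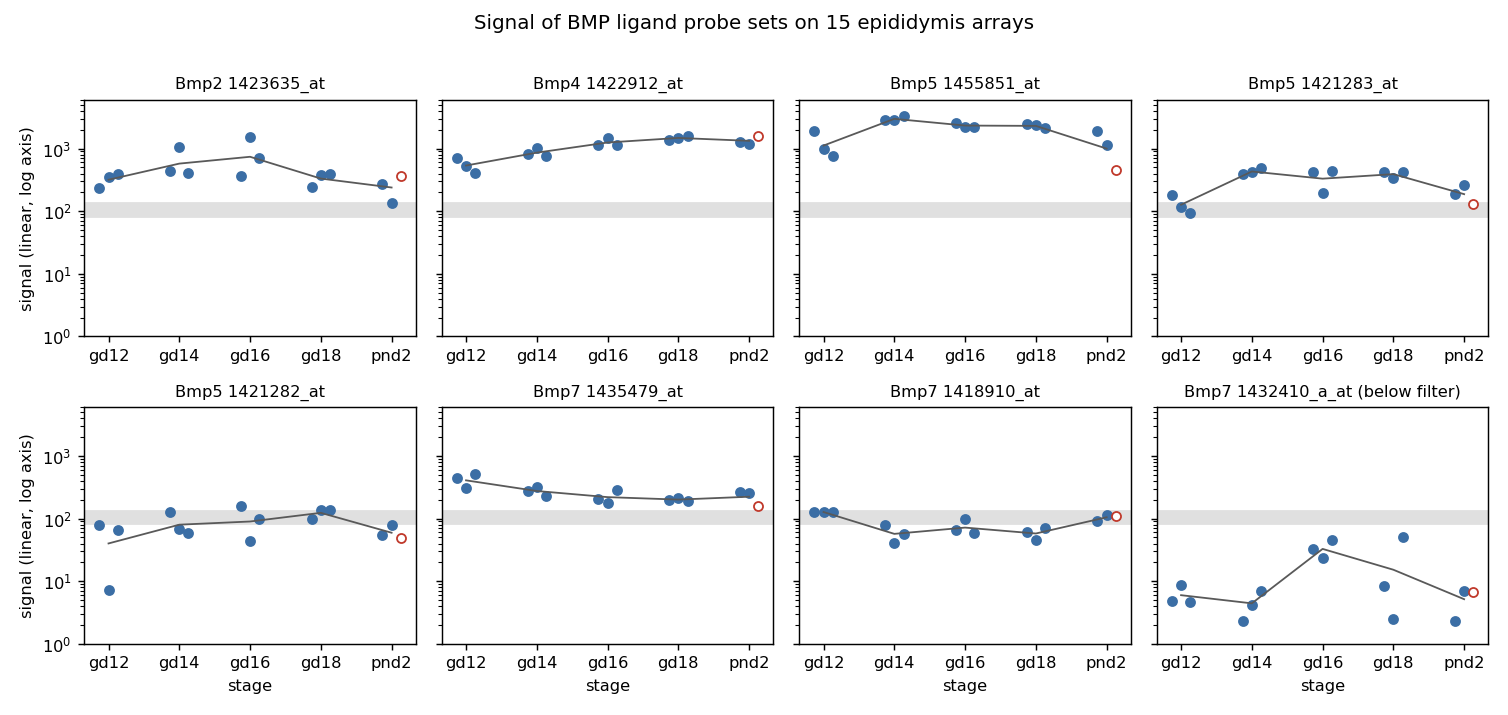
Signal (linear units, log axis) of the 8 ligand probe sets by stage, 1 point per array. The line joins stage means taken as log2(signal + 16), the open red point is pnd2 replicate 3, and the grey band spans the medians of the 15 arrays. Bmp4 climbs to 1377 to 1610 at gd18 and the upper Bmp5 probe set is highest at gd14, while Bmp2 has wide spread at gd16, between 366 and 1560.

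Of the 3 antagonists, only Chrdl1 had probe sets that passed the filter, and 2 of them were called. Probe set 1434201_at had 52.9, 56.4 and 50.7 at gd12, 20.2, 47.8 and 35.2 at gd14, 50.4, 93.1 and 58.8 at gd16, 212, 321 and 204 at gd18 and 621, 824 and 1718 at pnd2. Probe set 1456722_at had 45.5, 66.0 and 27.1 at gd12, 9.52, 57.3 and 48.9 at gd14, 48.0, 19.4 and 22.4 at gd16, 165, 310.1 and 265 at gd18 and 902, 825 and 1204 at pnd2. Both lay below the array medians through gd16, above all earlier arrays at gd18, and above all gd18 arrays at pnd2. They passed the filter only through the 6 arrays of gd18 and pnd2, so that their calls against earlier stages are not independent of the filter. At pnd2 against gd12 they were 14.1-fold and 16.3-fold higher (log2 changes 3.82 ± 0.36 and 4.03 ± 0.42). The adjusted p values were 4.87e-06 and 1.06e-05, and without pnd2 replicate 3 the changes were 3.40 and 3.87. Over the alternatives run the changes ranged from 3.13 to 4.14 and from 3.24 to 4.44, and each stayed called. Folds against signals this low depend on the 16 units added before log2.

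Part of the rise of Chrdl1 came before birth. At gd18 against gd12 it was 3.70-fold by 1434201_at (adjusted p = 0.00228) and 4.24-fold by 1456722_at (adjusted p = 0.00317). The comparison of gd18 with gd14 was added after the values were seen, and it called 2 of the 15 probe sets, both of Chrdl1, beside 1.84% of all kept probe sets (5 and 6.36% without pnd2 replicate 3, the others being Bmp4, Id2 and Id3). The folds there were 5.23 (adjusted p = 0.00297) and 5.15 (adjusted p = 0.00834, and 0.0547 without gd18 replicate 5). Both probe sets were kept by the filter through gd18 and pnd2 alone, so that their count beside the share of all is not independent of it. From one stage to the next the calls were less stable. At gd18 against gd16, 1456722_at was 5.76-fold higher (adjusted p = 0.0321), a call that ended, at 0.0711 to 0.186, when any 1 of the 6 arrays of gd16 and gd18 was left out, and also with a constant of 1. By 1434201_at that step was 1.66 ± 0.36 (adjusted p = 0.131, and 0.0189 without pnd2 replicate 3). At pnd2 against gd18, 1434201_at was 3.80-fold higher (adjusted p = 0.0357, and 0.0399 without pnd2 replicate 3). That call ended, at 0.0501 to 0.145, when any 1 of 10 arrays was left out (gd12 replicates 14 and 15, gd16 replicates 7 and 9, and every gd14 and gd18 array). It also ended with a constant of 1, with no filter (0.0596) and in the fit of the 6 arrays alone, at up to 0.59. By 1456722_at the same step was 1.94 ± 0.42 (adjusted p = 0.0538).

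The other Chrdl1 probe sets were dimmer. Probe set 1421295_at read 252, 197 and 19.6 at pnd2, against 5.79 to 161 over the 12 fetal arrays, so that replicate 3 parted from its stage mates in the opposite direction to that of 1434201_at. Its change at pnd2 against gd12 was 1.43 ± 0.77 (adjusted p = 0.2), and 2.34 without replicate 3 (adjusted p = 0.0164). It reached the array median on 3 arrays, gd18 replicate 5 and pnd2 replicates 1 and 2, so that these values are no separate support. Probe set 1424945_at read 1.22 to 86.2 and did not pass the filter.

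Neither Grem1, known in mice for letting the ureteric bud grow out, nor Nog, which binds BMP4 and BMP7, passed the filter. Grem1 had 136, 73.6 and 88.8 at gd12, 35.2, 55.3 and 57.0 at gd14, 47.7, 36.2 and 68.3 at gd16, 48.7, 54.8 and 103 at gd18 and 45.0, 10.4 and 39.5 at pnd2, and the gd12 arrays lay above the gd14 and pnd2 arrays. In the fit with no filter, Grem1 differed at pnd2 against gd12 by -1.33 ± 0.41 (adjusted p = 0.0485), past the threshold, and it was called in none of the other comparisons. Nog read 3.57 to 44.9 over the 15 arrays, and with no filter it differed at pnd2 against gd12 by -0.76 ± 0.39 (adjusted p = 0.241). With 1 probe set each and no detection calls, signal this low is not evidence that a transcript was missing.

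**Figure D3:**
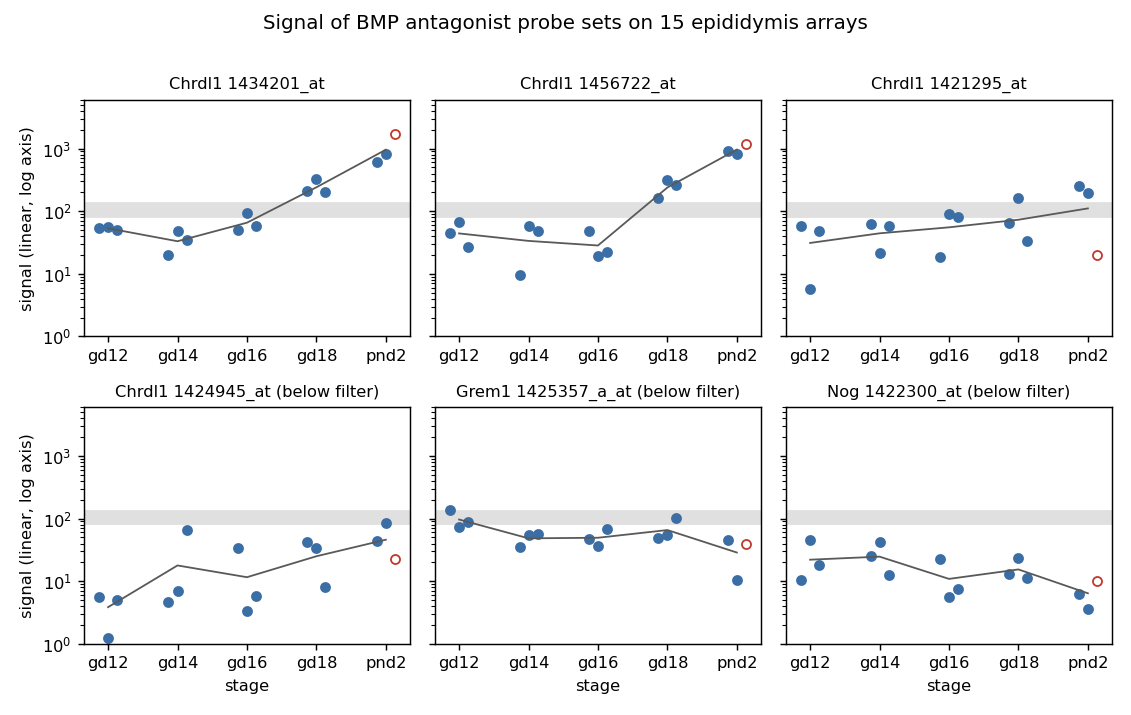
Signal (linear units, log axis) of the 6 antagonist probe sets by stage, 1 point per array, drawn as for the ligands. The upper left pair, both of Chrdl1, rises above the grey band of array medians at gd18 and reaches 621 to 1718 and 825 to 1204 at pnd2, while Nog stays at or under 44.9 on every array.

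The Id genes were highest at gd14 by their brightest probe sets, but none of the comparisons made between 2 stages called one with all 15 arrays. Id3 had 2927, 1178 and 1826 at gd12, 3414, 3115 and 2821 at gd14, 2342, 2214 and 2475 at gd16, 1736, 1734 and 1679 at gd18 and 1492, 1512 and 648 at pnd2. From gd14 on, each stage lay wholly below the one before, while the 3 gd12 arrays spread over most of that range. Id3 was called in the F test over the 5 stages (adjusted p = 0.0347, and 0.0106 without pnd2 replicate 3). That call ended, at 0.0549 to 0.0914, when any 1 of 10 arrays was left out (gd12 replicate 15 and every gd14, gd16 and gd18 array), and also with no intensity trend and without the 3 arrays in doubt. No consecutive step was called. Id3 differed at gd14 against gd12 by 0.75 ± 0.32 (adjusted p = 0.182) and at gd18 against gd14 by -0.85 ± 0.32 (adjusted p = 0.294). Without pnd2 replicate 3, an array of neither comparison whose leaving out changes the shared spread, these adjusted p values were 0.0191 and 0.0266.

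Id2, of the same family, was read by 3 probe sets. The brightest (1435176_a_at) had 4025, 2826 and 3227 at gd12, 5233, 5135 and 4179 at gd14, 2623, 2694 and 3582 at gd16, 3155, 2127 and 2532 at gd18 and 2973, 2872 and 5839 at pnd2. All gd14 arrays were above all gd12, gd16 and gd18 arrays, and pnd2 replicate 3 was the highest of the 15. The change at gd14 against gd12 was 0.54 ± 0.26 (adjusted p = 0.237, and 0.0275 without pnd2 replicate 3). At gd18 against gd14 it was -0.90 ± 0.26 (adjusted p = 0.111, and 0.00319 without that array). The F test over the stages gave this probe set an adjusted p of 0.105, and 0.0038 without that array. The second probe set (1422537_a_at) had 203, 24.9 and 14.8 at gd16 and 271, 335 and 66.4 at pnd2, against 104 to 368 on the arrays of gd12, gd14 and gd18. No comparison of 2 stages called it. Its F test over the stages gave an adjusted p of 0.101, and 0.0158 without pnd2 replicate 3. Its pnd2 replicate 3 was the lowest of its stage where that of 1435176_a_at was the highest. The third (1453596_at) read 26.6 to 135, reached the array median on 3 arrays, and was not called.

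Id1, often used as a readout of BMP signalling, had 365, 228 and 453 at gd12, 518, 634 and 616 at gd14, 665, 261 and 352 at gd16, 292, 501 and 611 at gd18 and 328, 411 and 86.9 at pnd2. Its gd14 arrays lay above its gd12 arrays, and gd16 and gd18 overlapped both. The pnd2 arrays overlapped gd12 and lay below all gd14 arrays. The change at gd14 against gd12 was 0.78 ± 0.48 (adjusted p = 0.38, 95% interval -0.24 to 1.80), an interval that holds 0 and also holds 1, a 2-fold rise. No comparison called Id1.

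**Figure D4:**
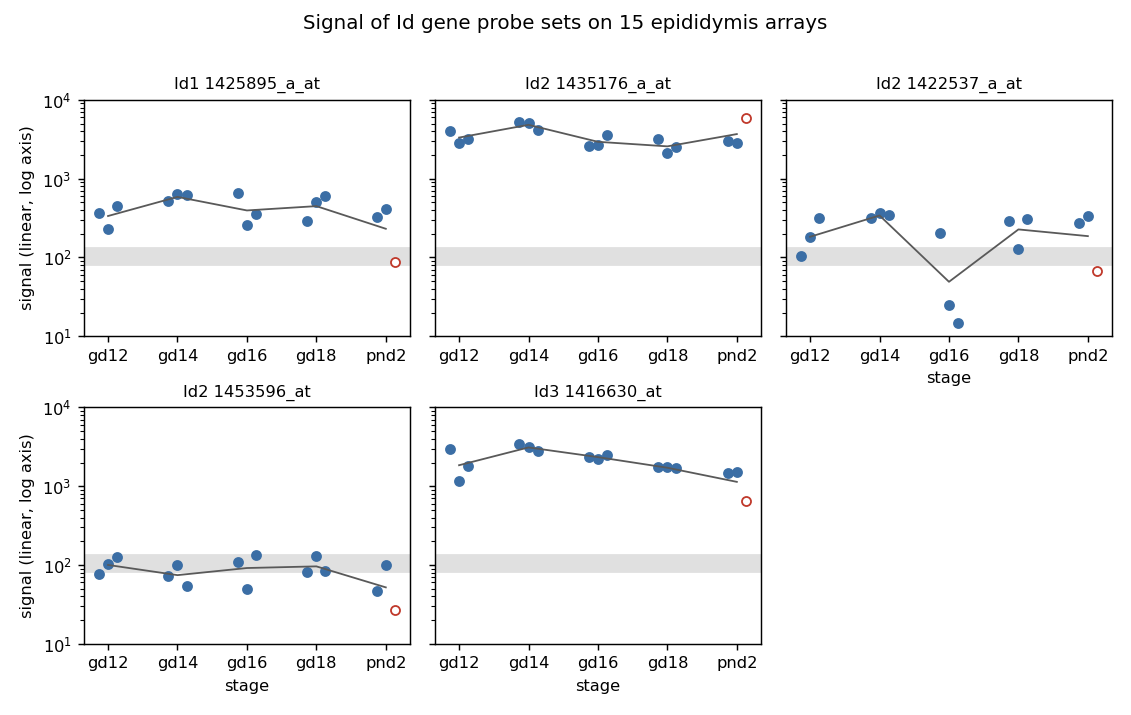
Signal (linear units, log axis) of the 5 Id probe sets by stage, 1 point per array, drawn as for the ligands. Id3 steps down after gd14 to 1679 to 1736 at gd18, and pnd2 replicate 3 (open red) is lowest for Id1 and Id3 but highest for the bright Id2 probe set.

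The rest of the pathway was counted from lists of genes by role, each gene read by its brightest kept probe set. Among 12231 such genes, 6.01% were called higher and 4.95% lower at gd14 against gd12, and 11.6% higher and 9.12% lower at gd18 against gd12. At pnd2 against gd12 it was 13.4% higher and 11.6% lower. Signals of Chrd, Fstl3, Tll1, Gata3 and Dlx5 at gd12, and of Msx2 at gd18, lay below the array medians, so that the folds of these genes depend on the 16 units added. In part this also holds for Bmp6, Bmpr1b and Sp7. They lay below the median on gd12 replicates 14 and 15, gd12 replicate 14 and gd18 replicate 6, in that order. The filter kept Chrd, Fstl3, Tll1, Gata3, Dlx5 and Msx2 through other stages than those low ones. Their calls against the low stages are therefore not independent of the filter. Without pnd2 replicate 3, 14.8% were higher at gd14 against gd12, and 19.9% higher and 19.3% lower at gd18 against gd12. Of 3 further ligands measured, Bmp6 and Gdf10 were called higher in both comparisons. Bmp6, a close relative of Bmp5 and Bmp7, had 296, 337 and 341 at gd14 and 145, 75.1 and 98.7 at gd12, a 2.86-fold rise (log2 change 1.52 ± 0.23, adjusted p = 0.000728). Gdf10, also called BMP3b, had 4052, 3673 and 2617 at gd14 and 284, 690.0 and 883 at gd12 (5.92-fold, adjusted p = 0.000434). Each gd14 array of Bmp6 and Gdf10 lay above each gd12 array. Both were also higher at pnd2 than at gd12, Bmp6 2.41-fold (adjusted p = 0.00117) and Gdf10 5.14-fold (adjusted p = 0.000311), where Bmp5 was not called.

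Of 10 receptor and coreceptor genes measured, 0 were called at gd14 against gd12, and 3 (Bmpr1a, Bmpr1b, Eng) were higher without pnd2 replicate 3. At gd18 against gd12, 4 were higher (Bmpr1a, Bmpr1b, Acvrl1 and Eng) and Acvr2b was lower. The type I receptor gene Bmpr1b had 1139.6, 925 and 701 at gd18 and 336, 72.1 and 210.2 at gd12, a 4.81-fold rise (adjusted p = 0.000849). It was 7.08-fold higher at pnd2 than at gd12 (adjusted p = 0.000116). Bmpr1a, a further BMP type I receptor gene, was 1.71-fold higher at gd18 (adjusted p = 0.0185). Acvr2b, a type II receptor gene shared with activin, was 2.60-fold lower (adjusted p = 0.00171). Acvrl1 and Eng are receptors known from vessel lining, whose markers are given above, and the part of vessels in these changes was not tested.

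Of 9 Smad and Smad-partner genes, 2 were called higher at gd18 against gd12 and 0 lower, and without pnd2 replicate 3 the counts were 3 higher and 1 lower. Smad1, a transducer of the signal, was 1.59-fold higher (adjusted p = 0.00497), and Ski, a repressor of Smad complexes, was 2.45-fold higher (adjusted p = 0.0184). At pnd2 against gd12, Smad1 was higher and Smad7, an inhibitory Smad, was 1.63-fold lower (adjusted p = 0.0406, and 0.0707 without pnd2 replicate 3). Smad6, an inhibitory Smad that the pathway itself is known to induce, had 375, 277 and 318 at gd12, 1240.2, 1133 and 806 at gd14, 606, 464 and 506 at gd16, 382, 295 and 377 at gd18 and 211, 309.9 and 21.8 at pnd2. Its gd14 arrays were its highest, and pnd2 replicate 3 was far below all others. The change at gd14 against gd12 was 1.65 ± 0.55 (adjusted p = 0.0798, and 2.81e-05 without pnd2 replicate 3). At gd18 against gd14 it was -1.54 ± 0.55 (adjusted p = 0.255, and 0.000222 without that array). Smad6 was singled out after its values were seen.

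Of 12 other antagonists and modulators, 4 were called higher at gd14 against gd12 (Chrd, Fstl1, Twsg1, Bmper) and none lower, and 7 were higher without pnd2 replicate 3. Chrd, the founding chordin, had 189, 170.5 and 165 at gd14 and 77.0, 58.8 and 26.7 at gd12 (2.86-fold, adjusted p = 0.0211), and it was 4.56-fold higher at gd18 than at gd12 (adjusted p = 0.00105). Bmper, which binds BMPs at the cell surface, had 1173, 853 and 565 at gd12, 1719, 1622 and 1481 at gd14, 1431, 1149.7 and 1363 at gd16, 611, 539 and 738 at gd18 and 453, 487 and 482 at pnd2. It was 1.92-fold higher at gd14 than at gd12 (adjusted p = 0.0187) and 2.53-fold lower at gd18 than at gd14 (adjusted p = 0.00679). At pnd2 Bmper was 1.72-fold lower than at gd12 (adjusted p = 0.0255), and the pnd2 arrays had its lowest signals and the highest of Chrdl1. Fstl3, a follistatin relative, had 186, 162 and 174 at gd18 and 9.17, 9.54 and 98.3 at gd12 (adjusted p = 0.0129). Tll1, a protease that cuts chordin, had 285, 257 and 229 at gd18 and 84.5, 17.6 and 1.39 at gd12 (adjusted p = 0.00189). It reached the array median on arrays of gd16 and gd18 alone. The filter thus kept it through the stages where it is high, and its call is given no weight.

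Of 11 further genes known as targets of BMP signalling, 5 were called higher (Id4, Dlx5, Tbx3, Gata2, Sp7) and 1 lower (Hey1) at gd14 against gd12. Dlx5 is in this count and in the medians that follow only because the filter kept it through gd14, as told below. Msx2 is in these medians only because the filter kept it through gd14 and gd16. The median log2 change of the 11 was 1.19, beside 0.03 over all genes. It was 0.10 at gd18 against gd12, beside 0.01 over all genes, and -0.30 at gd18 against gd14, beside -0.02. Id4, the remaining member of the Id family, had 615, 616 and 628 at gd12, 1619, 1853 and 1751 at gd14, 2287, 2943 and 2429.9 at gd16, 2145, 2237 and 2255 at gd18 and 1895, 1494 and 2326 at pnd2, a 2.76-fold rise at gd14 against gd12 (adjusted p = 0.000123). Every later array lay above every gd12 array, which was not so for Id1, Id2 or Id3. Id4 was 2.98-fold higher at pnd2 than at gd12 (adjusted p = 1.84e-05). The homeobox gene Dlx5 had 201, 178 and 221 at gd14 and 36.7, 34.2 and 32.5 at gd12. It reached the array median on the gd14 arrays alone, so that the filter kept it through the stage where it is high, and its call is given no weight. Msx2, another homeobox gene, had 23.4, 26.8 and 44.4 at gd18 and 342, 125 and 265 at gd14, a called fall (log2 change -2.38 ± 0.45, adjusted p = 0.0137). It reached the array median on arrays of gd14 and gd16 alone. The filter thus kept it through the stages where it is high, and its call is given no weight either. Sp7 was also lower at gd18 than at gd14 (2.36-fold, adjusted p = 0.0255), beside 0.769% of all genes. Hey1, a Notch target as well, had 567, 641 and 305 at gd14 and 2108, 2378 and 1658 at gd12 (4.10-fold lower, adjusted p = 0.000732). At gd14 and gd18 against gd12, Gata2 and Tbx3, both transcription factor genes, were higher in each, and Gata3 was higher at gd18 (3.32-fold, adjusted p = 0.0153). Hes1, a Notch target too, was 2.02-fold lower at pnd2 than at gd12 (adjusted p = 0.0115). The 3 E-protein genes that Id proteins bind (Tcf3, Tcf4, Tcf12) were called in none of these comparisons with all 15 arrays.

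**Figure D5:**
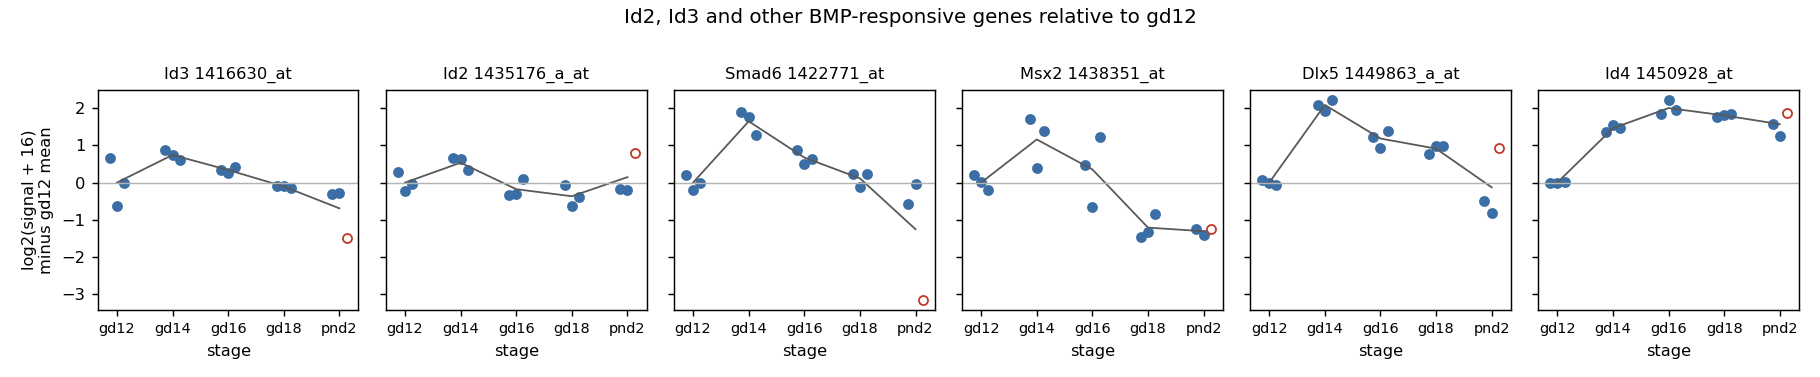
Level of Id3, Id2 (1435176_a_at) and 4 further BMP-responsive genes by stage, as log2(signal + 16) minus the gd12 mean, 1 point per array with stage means joined and pnd2 replicate 3 in open red. Smad6, Dlx5 and Id3 have their highest stage mean at gd14, Msx2 is lower at gd18 than at gd14 (-2.38 in log2), and Id4 stays high to pnd2. The 4 further genes are a choice. Smad6 was singled out after its values were seen. The filter kept Dlx5 through gd14 alone, and Msx2 through gd14 and gd16 alone. Listed targets not drawn differ: Hey1 was highest at gd12 (1658 to 2378), and the highest Gata2 signal (5415) was at gd16.

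Genes with the most similar profile were found for each of the 8 genes with a kept probe set, by Pearson's r of log2(signal + 16) over the 15 arrays, among 11732 other genes. The 15 arrays fall into 5 stages, so that any gene that changes with stage correlates with others that do, and the values are a description. For Bmp4 the nearest were Tgfb1i1 (0.96), Dnajb4 (0.96) and Mcf2l (0.96). For Chrdl1 they were Gspt2 (0.97), Sgms2 (0.97) and Acsl4 (0.96), and for Id3 they were Wnt4 (0.97), Tpbg (0.94) and Nme4 (0.93). Bmp5 was nearest to Lama5 (0.93), Flrt2 (0.93) and Igf2r (0.92), and Bmp7 to Nup93 (0.91), Cdc34 (0.90) and Rnf34 (0.90). Id1 was nearest to Rbfox2 (0.94), Mogs (0.93) and Eif4b (0.93), and those values were 0.87, 0.83 and 0.83 without pnd2 replicate 3. Id2 reached 0.85 with Mbnl3, 0.84 with Dock11 and 0.84 with Lypd6b, and Bmp2 reached 0.82 with Mcc, 0.82 with Cep350 and 0.80 with Slain2.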

How the data were processed

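Messenger RNA of 15 epididymis arrays (5 stages, 3 animals each) and 1 newborn pool array was measured on a mouse Affymetrix platform with 45101 probe sets. The deposited values are intensity per probe set on a linear scale, made with GCOS per the submitters' processing notes. The sources used here name no signal algorithm or GCOS version and hold no detection calls. The 2% trimmed mean of 500 was found from the deposited values. Probe sets were named from the platform annotation: 34945 had 1 symbol, 932 several and 9160 were not listed, and 64 controls were left out.

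Values were taken as log2(signal + 16) of the deposited intensity, and a probe set was kept at or above the array median on at least 3 of 15 arrays (25960 kept). The fit was made in limma 3.58.1 (R 4.3.3), with 1 mean per stage, an intensity trend and 10 residual degrees of freedom, and Benjamini-Hochberg adjustment over all kept probe sets in each comparison. The scripts were tested on simulated data. Arrays were grouped by the labelled stage. The comparisons were each stage against the one before, gd18 and pnd2 against gd12, an F test over the stages, and gd18 against gd14, which was added after the values were seen.

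The genes and lists were chosen with earlier results of these data known. All probe sets of the 10 genes are named. Genes of the other pathway lists are named where a comparison called them with all 15 arrays, and Smad6 by choice. Cell type markers are named for the comparisons the text gives. The profile search named the 3 genes of highest r per gene. Alternatives were other constants, scalings, filters, fits and left-out arrays. With 3 arrays per stage, the number of arrays limits the precision.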

Additional observations from a re-analysis of the deposited data

Results flagged for a closer look

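The newborn pool was in no comparison, and on its 1 array 4 probe sets of the 10 genes read above all 15 epididymis arrays. All 3 Bmp7 probe sets did so. The pool read 603.87 for 1435479_at, against a highest epididymis signal of 507, and 220.86 for 1418910_at, against 128. It read 64.36 for 1432410_a_at, against 51.6, a probe set that did not pass the filter. Grem1, which did not pass either, read 173.11 on the pool array and at most 136 on the epididymis arrays. The pool is whole newborns of both sexes, and with 1 array there is no test. Stages of 3 arrays are too small for the rule on outlying arrays.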

How the results depend on the processing

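No paired analysis was possible because the stages share no replicate numbers. No change called with all 15 arrays turned its direction under the alternatives run. Among changes that were not called, those at pnd2 against gd12 without pnd2 replicate 3 did so for Bmp5 1455851_at (0.40, against -0.16 with it), Id1 (0.12 against -0.51) and Id2 1435176_a_at (-0.18 against 0.15), and at pnd2 against gd18 for Id2 1422537_a_at (0.39 against -0.26). The median over all probe sets at pnd2 turned under median centring, as given above. Probe sets called over the whole array, for gd14, gd16 and gd18 each against the stage before, pnd2 against gd18, gd18 and pnd2 against gd12, gd18 against gd14, and any stage, numbered 2265, 16, 37, 145, 4294, 5478, 477 and 5442. Array quality weights gave, in that order but without pnd2 against gd12, 5900, 471, 440, 864, 7769, 2438 and 10016. Fitting the 6 arrays compared alone gave 5053, 383, 281, 0 (2131 at an unadjusted p under 0.05 in limma), 7103, 1456 and 2133. Leaving out the 3 arrays in doubt (pnd2 replicate 3, gd14 replicate 10, gd16 replicate 9) gave 4470 at gd14 against gd12, 35 at gd16 against gd14, 223 at pnd2 against gd18, 8100 at gd18 against gd12 and 900 at gd18 against gd14. At gd16 against gd14, quantile normalization gave 28 (19 higher, 9 lower, against 8 and 8) and no intensity trend 27. At gd18 against gd16, quantile normalization gave 56, a constant of 1 gave 18, and leaving out probe sets that match several transcripts gave 19. At pnd2 against gd18, median centring gave 71, a constant of 64 gave 236 and no filter 65, and quantile normalization split the calls 89 higher and 125 lower. With 1 probe set per gene, where fewer are tested, there were 73 at pnd2 against gd18, 2802 at gd18 against gd12, 3361 at pnd2 against gd12 and 3239 for any stage.

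Among the 15 probe sets of the BMP and Id genes, the counts moved as follows. No filter left 1 call at gd14 against gd12 and 0 at pnd2 against gd18 (5 unadjusted). With 1 probe set per gene there was 1 at gd14 against gd12, 0 at gd18 against gd16 (2 unadjusted), 3 at gd18 against gd12 and 1 at gd18 against gd14. Array weights gave 6, 2, 2 and 2 in the 4 consecutive steps, 5 at gd18 against gd14 and 10 for any stage. The 6 arrays alone gave 5, 1, 2 and 0 (5 unadjusted) in these steps, 2 at pnd2 against gd12 and 5 at gd18 against gd14. Without the 3 arrays in doubt there were 4 at gd14 against gd12 and 2 at pnd2 against gd18. A constant of 1 gave 0 at gd18 against gd16 (4 unadjusted) and 0 at pnd2 against gd18 (5 unadjusted), and a constant of 64 or quantile normalization gave 2 there. The cause was not tested.

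Leaving out 1 array at a time, the whole-array counts ranged, in the order above, over 1313 to 6191, 6 to 190, 7 to 262, 3 to 820, 2915 to 8641, 3824 to 7295, 203 to 1650 and 3752 to 10038, and those of the 15 probe sets over 1 to 6, 0 to 0, 0 to 2, 0 to 2, 4 to 7, 3 to 5, 1 to 5 and 4 to 10. The highest counts came without pnd2 replicate 3, except 820 without pnd2 replicate 2 and, among the 15, 2 at pnd2 against gd18 without pnd2 replicate 1 or 2, 7 at gd18 against gd12 also without pnd2 replicate 1, and 5 at pnd2 against gd12 without gd12 replicate 14. Signals mostly below the array medians limit what Nog, Grem1, and Chrdl1 before gd18 can show.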
